A study of Mus musculus with 6 samples.

Results

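The extracellular matrix of the embryonic cortex and the integrins that bind it were followed in 48 mouse genes named as a list of matrix proteins, matrix proteoglycans, integrins and matrix-remodelling enzymes. The list groups genes by function, and no measured value enters the rule, although the list was chosen with earlier results of these data known. All 48 symbols matched exactly 1 Ensembl identifier among the 54146 genes of the count tables. At least 1 read was counted for 47 of them, and 44 passed the filter on low counts and were tested in a fit of 16897 genes. The list held 7 laminins, 8 other basement membrane proteins, 6 fibronectin and collagen genes outside the basement membrane, 5 genes of the hyaluronan and lectican matrix, 2 matricellular proteins, 6 integrins, 9 syndecans and glypicans, and 5 proteases and inhibitors.

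RNA was sequenced from cortical cells of E15.5 mouse embryos (E for embryonic day) whose cortex had been electroporated in utero at E14.5. Both groups carried pCAG-GFP, a plasmid that drives green fluorescent protein from the broadly active CAG promoter, and a second plasmid with the U6 promoter, which makes a short hairpin RNA. In the Mir group (3 libraries) that plasmid was psil-pre-miR3607, which encodes a precursor of the microRNA miR-3607-5p, and in the Scr group (3 libraries) it was psil-pre-miRScr, whose hairpin is scrambled. GFP-positive cells were sorted 24 hours later, and cells of 2 wild-type embryos were pooled for each library, from 3 independent pools a group. For the strain, the protocol gives ICR and the sample entries give C57BL/6. The sort was on a plasmid marker and not on a cell type, so a library can hold any kind of cell that took up the plasmid or passed the gate.

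The matrix of the developing cortex has distinct sources. Radial glia, the neural progenitors, anchor their end-feet to a basement membrane of laminin, nidogen, perlecan and collagen IV below the meninges, and hold it with integrins that share the beta 1 chain. Vessels have a basement membrane of their own, made by endothelial and mural cells, and meningeal fibroblasts make the fibrillar collagens. Neurons and progenitors themselves make lecticans, the large chondroitin sulfate proteoglycans that bind hyaluronan, and the syndecans and glypicans, heparan sulfate proteoglycans of the cell surface that bind growth factors and morphogens.

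The sequences that define the comparison are the hairpin and the bases it could pair with. The hairpin oligonucleotide is shown with its loop in capitals. The strand after the loop is shown with bases 2 to 8, the seed by which a microRNA finds its targets, in capitals. The matching bases searched for in the 3′ untranslated regions of the members follow below in capitals, on the sense strand of the transcript.
hairpin oligonucleotide: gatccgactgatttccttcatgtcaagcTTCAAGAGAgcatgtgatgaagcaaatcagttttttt
strand after the loop: gCATGTGAtgaagcaaatcag
match to bases 2 to 8: TCACATG
match to bases 2 to 7 followed by A: CACATGA
match to bases 2 to 8 followed by A: TCACATGA

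Depth was similar in all libraries, with 12724511 to 16684038 reads counted in genes. Levels below are CPM, read counts scaled to a common library size after normalization, and levels of different genes are compared only as CPM per kb of annotated exon. Scr replicate 2 stood apart, with its lowest correlation to another library at 0.934 (Mir replicates 1 and 2), and it had the highest summed level of endothelial, mural, red blood cell and inhibitory neuron markers. Mir replicate 2 had the highest sum of meningeal fibroblast markers, 96.4 CPM against 6.81 to 18.2 CPM in the other libraries. The source is labelled as cortical progenitors, and radial glial markers (13 genes) summed to between 1796 and 2552 CPM in Scr and between 2240 and 3140 CPM in Mir. Intermediate progenitor markers (6 genes) summed to 1433 to 2180 CPM in Scr and 2192 to 3184 CPM in Mir, and cortical excitatory neuron markers (12 genes) to 5906 to 7312 CPM in Scr and 4896 to 5430 CPM in Mir. For each of these last 2 lists the groups did not overlap (exact permutation test, two-sided p = 0.1, n = 3 per group, the smallest p this design allows). Neurons were thus counted in every library beside progenitors. In bulk samples fewer cells of a type and less RNA per cell cannot be told apart.

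No matrix gene passed the threshold of an adjusted p under 0.05 in edgeR's quasi-likelihood F test, the main test: 0 of 44 were called higher and 0 lower in Mir. The background was as sparse, with 0% of all 16897 genes called higher and 0.00592% (1 gene) called lower. At an unadjusted p under 0.05, 5 members were higher in Mir beside 6.57% of all genes, and 3 were lower beside 7.93%. DESeq2, run as an alternative, called 2 of 41 members higher (Sdc3 and Gpc1) beside 1.6% of the 14595 genes it gave an adjusted p, and 2 lower (Lama4 and Vcan) beside 2.21%. Limma-voom called none of the members. The 3 Mir values lay above the 3 Scr values in 5 tested members (Lamb2, Sdc3, Gpc1, Gpc4 and Mmp15), beside 9.72% of all genes, and below them in 3 (Lama4, Col4a6 and Vcan), beside 10.3%. These 5 and 3 of 44 members are close to the background shares. Since the sums of intermediate progenitor and excitatory neuron markers were also apart between the groups, the part of that shift in the levels of these genes was not tested. Of the 44 members 21 had a higher fitted mean in Mir and 23 a lower one, and their median log2 fold change was -0.06, beside -0.01 over all genes tested.

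**Figure D1:**
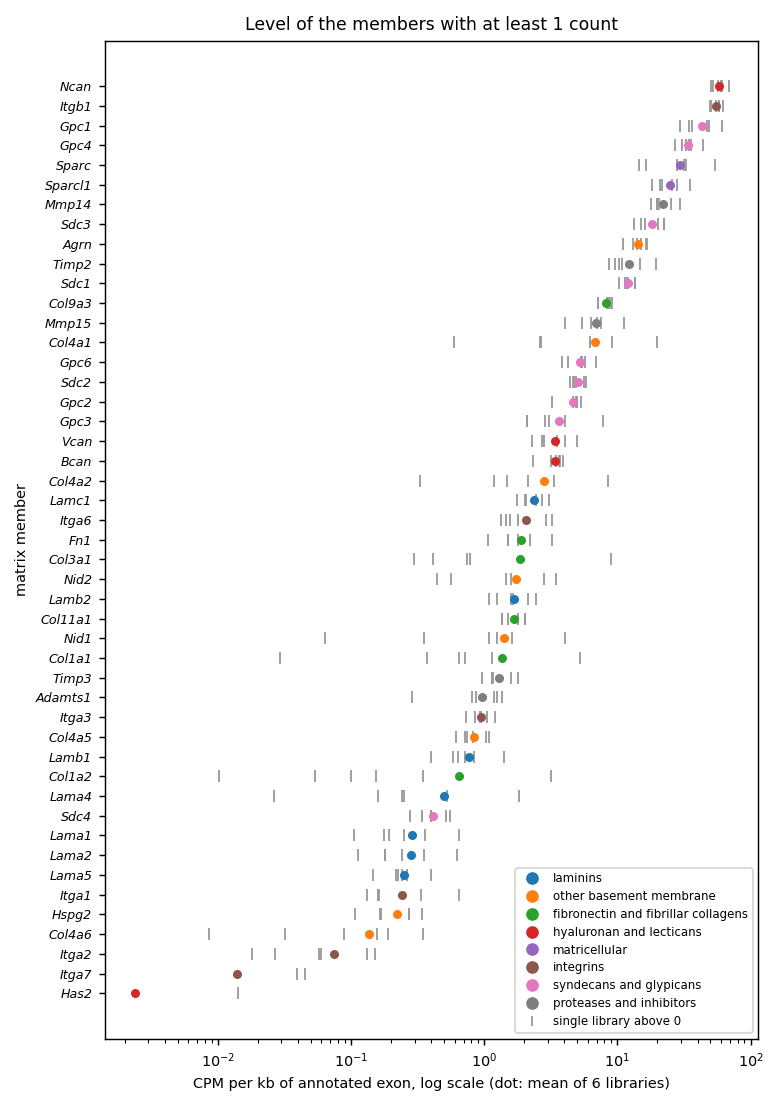
Level of the 47 matrix genes with at least 1 count, as CPM per kb of annotated exon on a log axis, with the mean of the 6 libraries as a dot coloured by group of genes and each library above 0 as a tick. Neurocan and integrin beta 1 lead, and the ticks of Col4a1, Col4a2, Nid1, Lama4 and the fibrillar collagens Col1a1, Col1a2 and Col3a1 spread far more widely than those of the neural proteoglycans.

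Per kb of exon over all libraries, the matrix of these cells was led by the brain lectican neurocan, the integrin beta 1 chain, glypican 1 and glypican 4. Neurocan (Ncan) had 59.5 ± 9.07 CPM per kb in Scr and 56.7 ± 4.42 in Mir (mean ± SD, n = 3, as for all means below). Integrin beta 1 (Itgb1), the chain common to the laminin, collagen and fibronectin receptors, had 54.0 ± 7.16 in Scr and 56.9 ± 1.49 in Mir. These neighbours in the order did not differ beyond their spread. Glypican 1 (Gpc1) had 33.2 ± 3.50 CPM per kb in Scr and 52.5 ± 7.46 in Mir, and glypican 4 (Gpc4) had 30.1 ± 2.94 and 38.3 ± 5.17. Sparc, a matricellular protein that binds collagen IV and is made strongly by vessels, had 34.4 ± 18.7 in Scr and 24.7 ± 8.94 in Mir, a spread that covers the levels of both glypicans in Scr. The most abundant basement membrane gene per kb was agrin (Agrn), a heparan sulfate proteoglycan that neural cells also make, with 14.7 ± 3.22 in Scr and 14.1 ± 0.883 in Mir. The laminins were low, the highest being the gamma 1 chain Lamc1 at 2.42 ± 0.644 CPM per kb in Scr and 2.27 ± 0.396 in Mir. Each of the other laminins was at or under 2.07 CPM per kb in both groups.

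Of the 9 syndecans and glypicans, 3 had Mir libraries that all lay above the Scr libraries, beside 9.72% of all genes. Of the 9, 7 had a higher fitted mean in Mir, beside 48.8% of all genes, and their median on the log2 scale was 0.21. Syndecan 3 (Sdc3), a transmembrane heparan sulfate proteoglycan of neural cells encoded at chr4:130792537-130826319 (GRCm38), had 90.3, 95.7 and 79.9 CPM in Scr replicates 1, 2 and 3 and 134, 133 and 121 CPM in Mir replicates 1, 2 and 3. Every Mir library was above every Scr library. The log2 fold change was 0.54 ± 0.10 (standard error, as for all fold changes below), with an edgeR adjusted p of 0.171 and a DESeq2 adjusted p of 0.000674. Glypican 1, a GPI-anchored heparan sulfate proteoglycan encoded at chr1:92831645-92860779, had 177, 186 and 151 CPM in Scr and 245, 253 and 315 CPM in Mir. Mir replicate 3 was highest, and the groups again did not overlap. Its log2 fold change was 0.66 ± 0.13, with an edgeR adjusted p of 0.178 and a DESeq2 adjusted p of 0.000778. Of the exon length of Gpc1, 18.9% overlaps Ankmy1 on the opposite strand, and of Sdc3 7.73% overlaps the noncoding genes Gm12970 and Gm26716. The kit does not mark the strand, so reads in those stretches cannot be assigned to one gene.

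Glypican 4, the other abundant glypican of these cells, encoded at chrX:52053021-52165252, had 81.6, 71.2 and 86.4 CPM in Scr and 95.3, 91.9 and 117 CPM in Mir. The gap between the groups was narrow, from 86.4 to 91.9 CPM. The log2 fold change was 0.35 ± 0.12, with an edgeR adjusted p of 0.287 and a DESeq2 adjusted p of 0.186. Leaving out any 1 library kept Sdc3 between 0.48 and 0.60, Gpc1 between 0.52 and 0.73 and Gpc4 between 0.22 and 0.42 on the log2 scale. The remaining members of these families overlapped between groups. Syndecan 1 (Sdc1) and syndecan 2 (Sdc2) had log2 fold changes of 0.21 ± 0.11 and 0.21 ± 0.15. Glypican 3 (Gpc3), a growth-restraining glypican also made by mesenchymal cells, had 8.26, 7.67 and 5.66 CPM in Scr and 5.60, 20.8 and 10.8 CPM in Mir. Its log2 fold change of 0.79 ± 0.44 came down to 0.20 without Mir replicate 2, the library with the high meningeal markers. Glypican 2 (Gpc2) and glypican 6 (Gpc6) had log2 fold changes of 0.10 ± 0.20 and -0.13 ± 0.22, and the scarce syndecan 4 (Sdc4), at 0.703 to 1.40 CPM, had -0.39 ± 0.39. Of the exon length of Gpc2, 55.6% is shared with Gm43720 on the same strand, so its counts are uncertain.

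**Figure D2:**
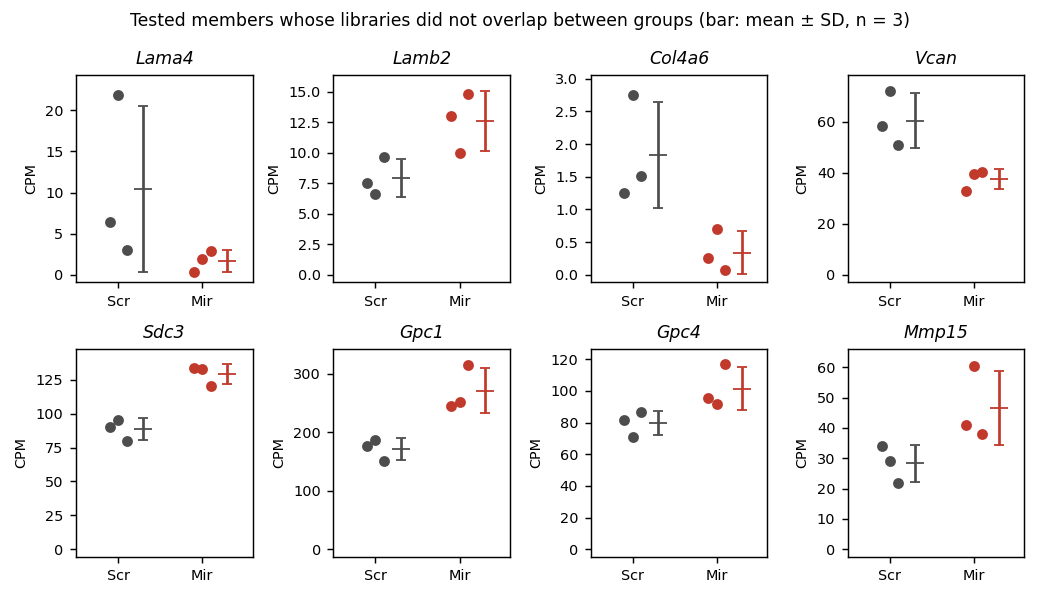
CPM of the 8 tested matrix genes whose Scr (grey) and Mir (red) libraries did not overlap, 1 point a library, with mean ± SD beside the points (n = 3 per group) and a separate linear axis for each gene. The Scr spread of Lama4 rests on 1 library at 21.9 CPM, while the points of Sdc3 lie close together within each group. Gpc1 ranges from 245 to 315 CPM in Mir, and Vcan from 50.9 to 72.0 CPM in Scr.

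The lecticans and their partners gave 1 gene with groups apart, the versican gene Vcan. Versican is the lectican of loose and migratory matrices, and is encoded at chr13:89655312-89742509. It had 58.2, 72.0 and 50.9 CPM in Scr and 32.9, 39.3 and 40.4 CPM in Mir, so that every Mir library was below every Scr library. The log2 fold change was -0.68 ± 0.15, with an edgeR adjusted p of 0.204 and a DESeq2 adjusted p of 0.00836. It stayed between -0.79 and -0.54 when any 1 library was left out. Neurocan, with 430, 493 and 362 CPM in Scr and 375, 410 and 439 CPM in Mir, had a log2 fold change of -0.07 ± 0.12 (edgeR adjusted p 0.833). Brevican (Bcan), a brain lectican, had 9.43, 13.0 and 14.9 CPM in Scr and 15.1, 14.1 and 15.8 CPM in Mir, with a log2 fold change of 0.27 ± 0.20. Oligodendrocyte precursors, a cell type that makes versican, had summed markers (5 genes) of 5.45, 38.9 and 19.7 CPM in Scr and 31.2, 38.9 and 23.6 CPM in Mir. Their part in the level of versican was not tested.

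Both members that act on hyaluronan itself were at or near 0. The link protein gene Hapln1, whose product ties lecticans to hyaluronan, had 0 counts in all 6 libraries, which allows a level of up to 0.180 to 0.236 CPM by library, taking 3 counts as the limit that a count of 0 allows. This limit covers counting error only. The hyaluronan synthase gene Has2 had 1 count in all, in Scr replicate 3, and 0 in the other libraries. Neither gene was tested. Another hyaluronan synthase, Has3, from the list of other matrix genes, was counted in every library, with 12.1, 9.77 and 10.9 CPM in Scr and 8.14, 8.88 and 11.7 CPM in Mir (log2 fold change -0.19 ± 0.21, edgeR adjusted p 0.716).

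The basement membrane genes other than laminins were lower in Mir in 7 of 8 cases by fitted mean (median log2 fold change -0.91), and none passed edgeR's test. The collagen IV chains Col4a1 and Col4a2, which assemble into the network of vascular and pial basement membranes, are neighbours. Their RefSeq starts on chromosome 8 face away from each other and overlap over 22 bases. The RefSeq starts of the other members were not compared. The overlap is shown here without capitals (GRCm38.p6, plus strand, chr8:11312805-11312826).
Col4a1 and Col4a2 shared start: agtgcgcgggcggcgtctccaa
Col4a1 had 67.8, 148 and 19.4 CPM in Scr and 4.45, 19.9 and 46.8 CPM in Mir. Col4a2 had 22.0, 56.5 and 7.83 CPM in Scr and 2.16, 9.77 and 14.0 CPM in Mir. Both followed the same order, with Scr replicate 2 highest and Mir replicate 1 lowest, and in both the groups overlapped. The log2 fold changes were -1.73 ± 0.88 for Col4a1 (edgeR adjusted p 0.412) and -1.73 ± 0.80 for Col4a2 (0.371). Without Scr replicate 2 they were -0.88 and -0.78.

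Nidogen 1 (Nid1), which links laminin to collagen IV, had 11.2, 28.0 and 2.47 CPM in Scr and 0.445, 8.69 and 7.60 CPM in Mir. Scr replicate 2 was again highest and Mir replicate 1 lowest, and the log2 fold change of -1.31 ± 1.02 (edgeR adjusted p 0.586) came to -0.28 without Scr replicate 2. Nidogen 2 (Nid2) had 7.56, 18.0 and 2.29 CPM in Scr and 2.93, 14.5 and 8.21 CPM in Mir, with a log2 fold change of -0.12 ± 0.76 that was 0.81 without Scr replicate 2. Of the exon length of Nid2, 8.45% overlaps Rtraf on the opposite strand. Perlecan (Hspg2), a heparan sulfate proteoglycan of basement membranes, ranged from 2.35 to 4.85 CPM in Scr and from 1.53 to 3.87 CPM in Mir. Agrin, with 152, 156 and 102 CPM in Scr and 139, 123 and 131 CPM in Mir, had a log2 fold change of -0.06 ± 0.16 (edgeR adjusted p 0.904). Its spread within Scr was larger than the difference of the means. The X-linked chain Col4a6 had 1.25, 2.75 and 1.51 CPM in Scr and 0.254, 0.703 and 0.0679 CPM in Mir, without overlap. These are 16, 38 and 25 reads against 4, 11 and 1, and the log2 fold change was -2.39 ± 0.70 (edgeR adjusted p 0.240; DESeq2 gave no adjusted p). Its neighbour Col4a5 had a log2 fold change of 0.11 ± 0.28. Both genes also face away from each other, with Col4a6 annotated from chrX:141474076 on the minus strand and Col4a5 from chrX:141475385 on the plus strand.

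The 7 laminins split, with 3 higher and 4 lower by fitted mean and a median log2 fold change of -0.07. The alpha 4 chain Lama4, a chain of vascular basement membranes, encoded at chr10:38965515-39110188, had 6.39, 21.9 and 3.01 CPM in Scr and 0.318, 1.92 and 2.92 CPM in Mir. The groups did not overlap, but Scr replicate 3 and Mir replicate 3 were 3.01 and 2.92 CPM. The log2 fold change was -2.60 ± 0.89, with an edgeR adjusted p of 0.276 and a DESeq2 adjusted p of 0.0308, and it was -1.45 without Scr replicate 2. The beta 2 chain Lamb2 had 7.56, 6.59 and 9.63 CPM in Scr and 13.0, 9.96 and 14.8 CPM in Mir. Its groups also did not overlap, in the opposite direction, with a log2 fold change of 0.67 ± 0.23 (edgeR adjusted p 0.280, DESeq2 adjusted p 0.165). The beta 1 chain Lamb1 had 8.34, 14.0 and 5.78 CPM in Scr and 3.94, 7.09 and 6.31 CPM in Mir, with a log2 fold change of -0.69 ± 0.37. The gamma 1 chain Lamc1, present in most laminin trimers, had 20.1, 25.3 and 14.7 CPM in Scr and 16.8, 17.1 and 22.6 CPM in Mir, a log2 fold change of -0.09 ± 0.23 (edgeR adjusted p 0.891). The alpha chains Lama1, Lama2 and Lama5, at 1.01 to 10.3 CPM, had log2 fold changes of 0.70 ± 0.60, 0.86 ± 0.55 and -0.07 ± 0.39, and their groups overlapped.

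**Figure D3:**
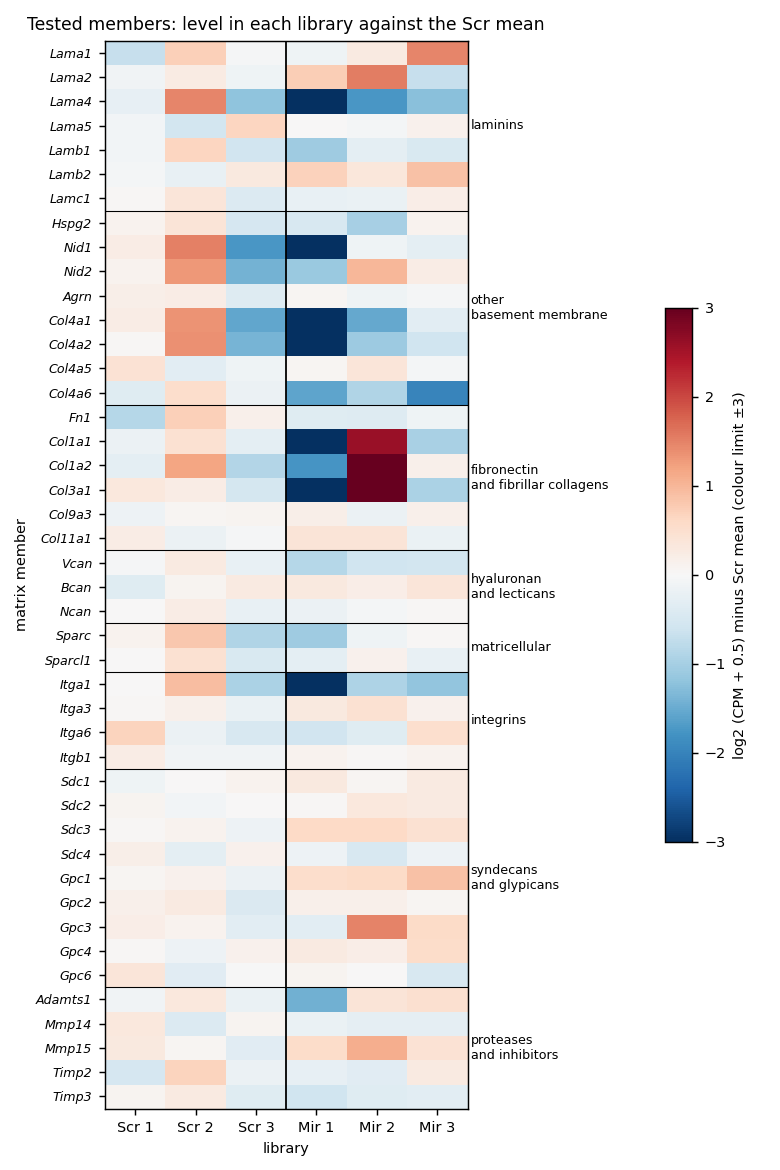
Level of the 44 tested matrix genes in each library, as log2 (CPM + 0.5) minus the mean of the Scr libraries, with colours limited to 3 in either direction and a vertical line between the groups. The Col4a1, Col4a2, Nid1, Lama4 and Itga1 rows are darkest red in Scr replicate 2 and darkest blue in Mir replicate 1, and Col1a1, Col1a2 and Col3a1 are red in Mir replicate 2.

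Of the 6 integrin chains 4 were tested, and none passed the test. Itgb1 had 254, 202 and 204 CPM in Scr and 235, 225 and 236 CPM in Mir, a log2 fold change of 0.08 ± 0.11 (edgeR adjusted p 0.783). The laminin receptor chains Itga6 and Itga3 overlapped between groups. Itga6 had 29.3, 16.1 and 13.1 CPM in Scr and 12.1, 14.2 and 26.1 CPM in Mir, with a log2 fold change of -0.16 ± 0.38, and Itga3 had 4.15 to 5.43 CPM in Scr and 5.29 to 6.83 CPM in Mir, with 0.32 ± 0.23. The collagen receptor chain Itga1 had 6.23, 12.1 and 2.95 CPM in Scr and 0, 3.0 and 2.44 CPM in Mir. It was highest in Scr replicate 2 and had no read in Mir replicate 1, and the log2 fold change was -1.96 ± 1.01 (edgeR adjusted p 0.416). Itga2, the other collagen receptor chain, was too low to be tested, with 12, 15 and 7 reads in Scr and 3, 2 and 6 in Mir, although its Scr libraries were all above its Mir libraries in CPM. Itga7, a laminin receptor chain of muscle and mural cells, had 5 reads in Scr replicate 2, 5 in Mir replicate 2 and 0 elsewhere, and was not tested either.

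Vessel markers shared their highest and lowest library with several of these genes. The order of the libraries between differed for the endothelial sum, and for the mural sum it was that of Col4a1 and Col4a2. The 14 endothelial markers summed to 178, 376 and 65.0 CPM in Scr and to 44.5, 45.1 and 118 CPM in Mir (exact permutation test of the 2 groups, two-sided p = 0.2, n = 3 per group). Scr replicate 2 was highest and Mir replicate 1 lowest, as for Col4a1, Col4a2, Nid1, Lama4 and Itga1. The same held for Lamb1, Vcan, Sparc and Timp3, so these extremes were not particular to genes of the vessel wall. The basement membrane genes Nid2, Hspg2, Agrn, Lamc1 and Col4a6 were also highest in Scr replicate 2 but lowest in a library other than Mir replicate 1. Mir replicate 2 was close to Mir replicate 1 in the endothelial sum. Nid1 was higher in Mir replicate 2 than in Scr replicate 3, and so was the sum of the mural markers. The single mural markers split between these libraries. Vtn, Myl9, Tagln, Acta2 and Foxf2 were higher in Mir replicate 2, where Vtn gave 23.9 CPM and Myl9 12.8 CPM of the sum. Rgs5, Kcnj8, Abcc9, Pdgfrb, Higd1b, Notch3 and Anpep were lower in Mir replicate 2. Rgs5 had 0.128 CPM there and 7.05 CPM in Scr replicate 3. Of the endothelial sum, Slc2a1 alone gave 52.7, 91.1 and 42.3 CPM in Scr and 38.5, 37.4 and 60.2 CPM in Mir. All 14 markers were counted in each Scr library and in Mir replicate 3. At 0 were 7 of 14 in Mir replicate 1 and 7 of 14 in Mir replicate 2, among them Pecam1, Cdh5, Cldn5, Tie1 and Emcn in both. The 12 mural markers summed to 84.3, 156 and 36.6 CPM in Scr and to 14.4, 50.7 and 58.4 CPM in Mir (exact permutation test, p = 0.3, n = 3 per group), with 4 of 12 at 0 in Mir replicate 1 and 2 of 12 in Mir replicate 2. The part of these cells in the levels of the basement membrane genes was not tested. Of the 15 tested laminin and other basement membrane genes, 10 were highest in Scr replicate 2. Over all 44 members 43.2% were highest there, beside 25.2% of all genes tested, and 34.1% were lowest in Mir replicate 1, beside 15.3%. The 3 genes whose profile over the 6 libraries was most like the mean of the 15 basement membrane members were Jup (Pearson's r of 0.995), Ggta1 (0.991) and Zfp36 (0.989). These correlations are descriptions over 6 libraries, in which each gene is measured from the same RNA at the same depth as the members. They are the highest of a search over all tested genes outside the list, so their size alone shows no link to the members.

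**Figure D4:**
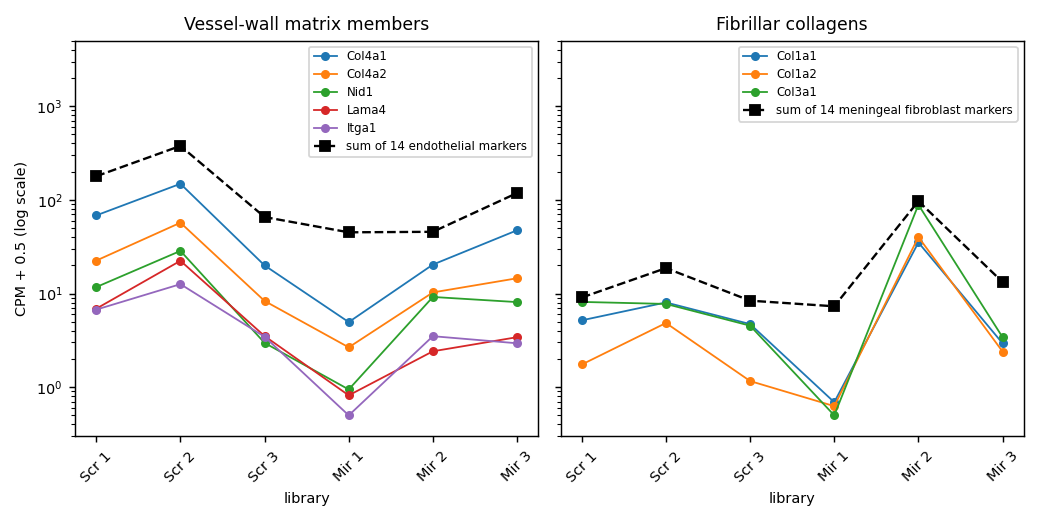
CPM + 0.5 on a log axis in each library for 5 vessel-wall matrix genes with the sum of 14 endothelial markers (left, dashed), and for 3 fibrillar collagens with the sum of 14 meningeal fibroblast markers (right, dashed). Scr replicate 2 is the peak on the left, and Mir replicate 2 is the peak on the right, where the marker sum reaches 96.4 CPM. Lamb1, Vcan, Sparc and Timp3, which are not plotted, had the same highest and lowest library as the genes on the left.

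The fibrillar collagens Col1a1, Col1a2 and Col3a1 peaked in a different library from Col4a1 and Col4a2. Col3a1, a collagen of connective tissue, had 7.63, 7.24 and 4.03 CPM in Scr and 0, 88.1 and 2.92 CPM in Mir, with 1380 reads in Mir replicate 2, 43 in Mir replicate 3 and 0 in Mir replicate 1. Col1a1 had 4.67, 7.53 and 4.22 CPM in Scr and 0.191, 34.6 and 2.44 CPM in Mir. Col1a2 had 1.25, 4.34 and 0.662 CPM in Scr and 0.127, 39.6 and 1.90 CPM in Mir. All 3 were highest in Mir replicate 2 and lowest in Mir replicate 1, so the extremes of all 6 libraries both lay within the Mir group. Their log2 fold changes of 2.27 ± 1.55 (Col3a1), 1.18 ± 1.26 (Col1a1) and 2.74 ± 1.55 (Col1a2) became -2.09, -2.04 and -1.01 without Mir replicate 2. The direction of these genes between the groups therefore rested on that library.

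Meningeal fibroblast markers (14 genes) summed to 8.57, 18.2 and 7.89 CPM in Scr and to 6.81, 96.4 and 12.8 CPM in Mir (exact permutation test, p = 0.7, n = 3 per group). All 14 were counted in Mir replicate 2, whereas from 2 to 9 were at 0 in each of the other libraries. Aldh1a2 and Slc22a6, defining markers of the meninges, were at 0 in every library but Mir replicate 2, where Aldh1a2 had 13.5 CPM and Slc22a6 3.64 CPM. The list was not uniform: Foxc1, Ccn3 and Foxd1 were highest in Scr replicate 2 (Foxc1 at 7.96 CPM there and 4.98 CPM in Mir replicate 2). Ogn had 0.390, 1.23 and 1.02 CPM in Scr and 3.18, 11.2 and 5.77 CPM in Mir, all Mir libraries above all Scr libraries (log2 fold change 2.90 ± 0.58, edgeR adjusted p 0.186, DESeq2 adjusted p 0.000409). The part of meningeal cells in the collagen levels was not tested.

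The remaining collagens and fibronectin did not share that pattern. Col9a3 had 27.6, 32.2 and 32.8 CPM in Scr and 35.0, 27.4 and 34.0 CPM in Mir, a log2 fold change of 0.06 ± 0.14, and was the most abundant gene per kb of its group, at 8.01 ± 0.739 CPM per kb in Scr and 8.34 ± 1.07 in Mir. Of the exon length of Col9a3, 6.07% overlaps Tcfl5 on the opposite strand. Col11a1 had 22.9, 17.4 and 19.2 CPM in Scr and 25.8, 25.9 and 17.2 CPM in Mir, a log2 fold change of 0.21 ± 0.20. Fibronectin (Fn1) had 12.5, 37.9 and 25.6 CPM in Scr and 17.7, 17.6 and 21.1 CPM in Mir. Its log2 fold change of -0.43 ± 0.35 was -0.03 without Scr replicate 2. By fitted mean 5 of these 6 genes were higher in Mir, and without Mir replicate 2 the 3 fibrillar genes above were lower.

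Both matricellular genes were highest in Scr replicate 2, and they differed in their lowest library. Sparc had 125, 204 and 62.0 CPM in Scr and 55.3, 106 and 119 CPM in Mir, highest in Scr replicate 2 and lowest in Mir replicate 1. Its log2 fold change was -0.47 ± 0.43 (edgeR adjusted p 0.652) and 0.00 without Scr replicate 2. Its relative Sparcl1, made by radial glia and by vessels, had 74.9, 103 and 53.9 CPM in Scr and 61.1, 81.6 and 63.7 CPM in Mir, and was lowest in Scr replicate 3. Its log2 fold change was -0.17 ± 0.23.

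Among the proteases and inhibitors, Mmp15, a membrane-anchored metalloproteinase, had 34.0, 29.0 and 22.0 CPM in Scr and 41.0, 60.4 and 37.9 CPM in Mir. The groups did not overlap, and the log2 fold change was 0.71 ± 0.23 (edgeR adjusted p 0.253, DESeq2 adjusted p 0.0609). Mmp14, the related and more abundant membrane metalloproteinase, had 177, 107 and 151 CPM in Scr and 123, 118 and 117 CPM in Mir, with a log2 fold change of -0.28 ± 0.17 (edgeR adjusted p 0.486). Its Mir libraries lay inside the range of the Scr libraries. The inhibitor Timp3, which stays bound to the matrix, had 12.9, 14.6 and 9.33 CPM in Scr and 7.82, 9.33 and 9.50 CPM in Mir, a log2 fold change of -0.46 ± 0.22 (edgeR adjusted p 0.383). Of its exon length 21.3% overlaps Syn3 on the opposite strand. The inhibitor Timp2 had 33.7, 76.6 and 41.9 CPM in Scr and 40.1, 37.6 and 57.1 CPM in Mir, and the secreted protease Adamts1 had 4.28 to 6.30 CPM in Scr and 1.53 to 7.19 CPM in Mir. Their log2 fold changes were -0.17 ± 0.31 and 0.02 ± 0.52.

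**Figure D5:**
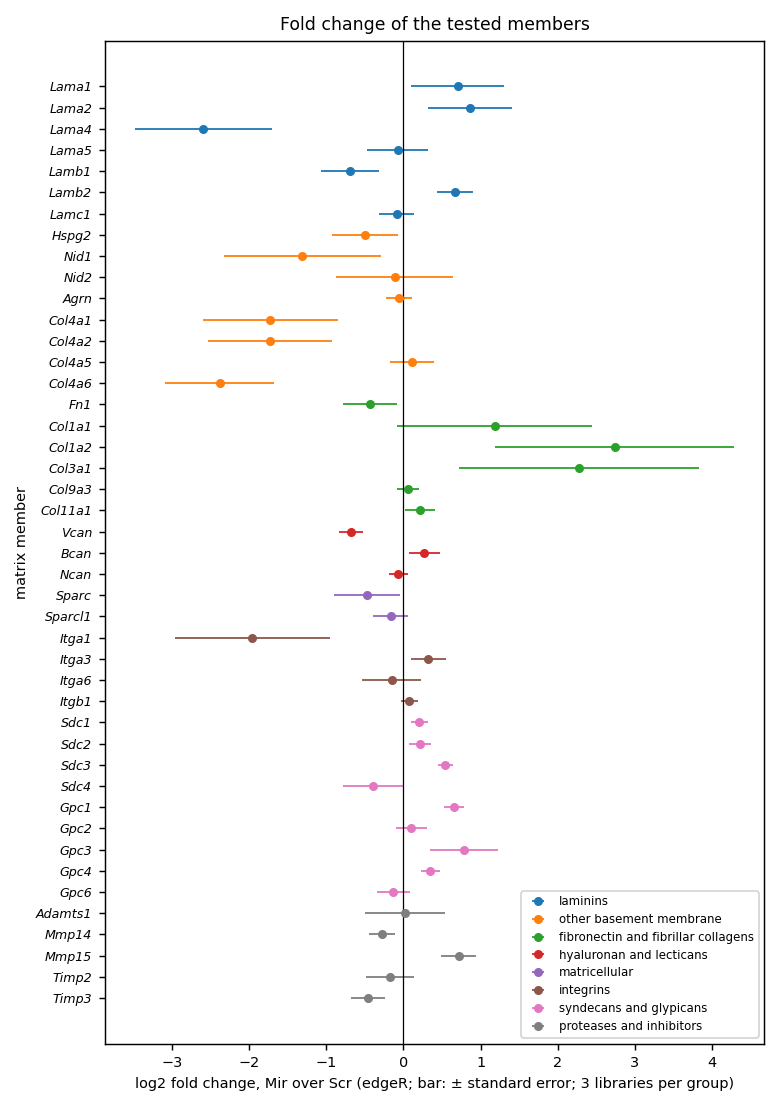
Log2 fold change (Mir over Scr) of the 44 tested matrix genes from edgeR, with the standard error as a bar (3 libraries per group) and colours by group of genes. The bars are short for the lecticans and most syndecans and glypicans and long for Col4a1, Col4a2, Nid1, Lama4, Itga1 and the fibrillar collagens Col1a1, Col1a2 and Col3a1, and the points of Sdc3, Gpc1 and Vcan stand farthest from 0 for the length of their bars.

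Matches to the seed of the strand after the loop were found in the 3′ untranslated region of 9 of the 44 tested members (20.5%), beside 2201 of the 12741 tested genes with an annotated 3′ untranslated region (17.3%). The motif search read 1 transcript per gene, on the sense strand, for either 7-base match, and TCACATGA holds both. The 9 members had a median log2 fold change of 0.21 and the members without a match -0.09, and 2 of the 9 had a lower mean in Mir (Timp2 and Itga1). Over all genes the medians were -0.03 with and 0.00 without a match. The sites of the members described most fully above are shown with 30 bases each on the transcript strand and the match in capitals (GRCm38, GENCODE M21), to set beside the values of Sdc3, Gpc1, Itgb1 and Itga1 given above, none of which passed the edgeR test.
Sdc3 (plus strand, chr4:130824443-130824472): tccaccatctcTCACATGtcccaggttcag
Gpc1 (plus strand, chr1:92859317-92859346): ccttggtggtcCACATGAggagcctcactt
Itgb1 (plus strand, chr8:128732172-128732201): cagggttttatTCACATGcaggtttggaaa
Itga1 first site (minus strand, chr13:114957140-114957169): ctgaagattagTCACATGttagctttaata
Itga1 second site (minus strand, chr13:114956113-114956142): taccaccagttTCACATGAaattcctatcc

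Itga1 was the sole tested member with the 8-base match, which 2.66% of the 12741 tested genes with an annotated 3′ untranslated region hold. Sdc1, Sdc2, Col1a1, Timp2 and Adamts1 each had a 7-base match, and the untested Has2 had 3 sites. Vcan, Lama4, Col4a1 and Col4a2 had no match in the transcript read. A match is a description of the sequence and was not tested as a site of action.

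Other genes of the matrix, from lists of related genes, gave no call by edgeR either. Of the 33 tested genes for other matrix proteins 14 had a higher and 19 a lower fitted mean in Mir (median log2 fold change -0.12), with 2 of them above and 3 below without overlap, no larger a share than the 9.72% and 10.3% of all genes. The 2 with the smallest p were Smoc1, a calcium-binding basement membrane protein, and tenascin C (Tnc), a glycoprotein of the progenitor matrix. Smoc1 had 13.6, 15.1 and 10.6 CPM in Scr and 23.7, 24.3 and 19.1 CPM in Mir, a log2 fold change of 0.77 ± 0.19 (edgeR adjusted p 0.212, DESeq2 adjusted p 0.0187). Tnc had 52.5, 31.4 and 51.9 CPM in Scr and 60.1, 87.9 and 106 CPM in Mir, a log2 fold change of 0.90 ± 0.26 (edgeR adjusted p 0.234, DESeq2 adjusted p 0.0213). In both genes the Mir libraries were above the Scr libraries.

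Of the 20 tested genes for other matrix proteases and inhibitors 5 were higher and 15 lower by fitted mean (median log2 fold change -0.34). Without overlap, 0 of the 20 lay above and 4 below, beside 9.72% and 10.3% of all genes. Those with the smallest p were Adamts3, a procollagen-processing protease, with 3.82, 8.11 and 5.66 CPM in Scr and 2.61, 2.17 and 2.71 CPM in Mir (log2 fold change -1.23 ± 0.33, edgeR adjusted p 0.216), and the membrane sheddase Adam10 (-0.36 ± 0.12, edgeR adjusted p 0.272). The 12 tested collagen-processing enzymes had 8 higher and 4 lower (median 0.10), led by the lysyl hydroxylases Plod2 (0.49 ± 0.18) and Plod3 (0.30 ± 0.13). The 15 tested enzymes of heparan and chondroitin sulfate, the sugar chains of the syndecans, glypicans and lecticans, had 9 higher and 6 lower (median 0.05). Among them the chondroitin sulfotransferase Chst11 had a log2 fold change of -0.72 ± 0.25 and the heparan sulfate sulfotransferase Ndst2 one of 0.42 ± 0.15 (edgeR adjusted p 0.282 for each).

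The 12 other tested matrix receptors had 7 higher and 5 lower (median 0.09). Dystroglycan (Dag1), a laminin receptor, had a log2 fold change of 0.38 ± 0.13 (edgeR adjusted p 0.276) and the sarcoglycan Sgce one of -0.34 ± 0.11 (edgeR adjusted p 0.253). The 14 tested genes of the machinery that couples integrins to the cytoskeleton had 7 higher and 7 lower (median 0.01). Their smallest p-values were those of the adaptors Lims1 (0.32 ± 0.09, edgeR adjusted p 0.224) and Bcar1 (0.54 ± 0.19, edgeR adjusted p 0.282).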

How the data were processed

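The authors deposited read counts per gene for 6 libraries (3 Scr, 3 Mir), whole numbers without normalization. HISAT2 2.1.0, DESeq2 1.18.1, HTSeq 0.11.0 and the build mm10 (GRCm38) are listed per the submitters' processing notes. For the counting, annotation and strand setting are not given in the sources used. Per the labels' protocols, libraries were made with SMART-seq v4, which marks no strand, and sequenced as 50 bp single reads. Summary lines that name no gene stayed out of library sizes and tests. They held 28.8 to 31.6% of listed reads in no feature, 0.357 to 0.376% ambiguous, 4.48 to 5.48% not aligned and 39.3 to 44.4% not unique. Amplified reads are not independent molecules, so depth limits cover counting error only.

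Symbols came from GENCODE M21, where 54079 of 54146 genes matched. The filter was edgeR's filterByExpr, scaling was TMM (factors 0.992 to 1.01), and the test was the two-sided quasi-likelihood F test of edgeR 4.0.16 in R 4.3.3 with group as the sole term, p-values adjusted over 16897 genes by Benjamini-Hochberg. The biological coefficient of variation was 23.6%. The scripts were tested on simulated counts. DESeq2 1.42.0 (which gave no adjusted p to 2302 genes) and voom in limma 3.58.1 were alternatives, beside other filters and scaling, a replicate block and leaving out libraries. Libraries of a group differed by a chi-square of 7.69 to 25.6 per degree of freedom, so each counted as 1 sample, and a p-value measures the variation among pools of 2 embryos.

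Named in the text were the 12 members with the smallest p, the most abundant per kb in each group, those whose groups did not overlap, and the 2 genes with the smallest p of each further list; other members are given by role. Members and lists were chosen with earlier results of these data known. Promoter starts are from RefSeq on GRCm38.p6.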

Additional observations from a re-analysis of the deposited data

How the results depend on the processing

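Every member log2 fold change was recomputed under 13 alternatives, giving 565 values. Of these, 519 kept direction and did not pass the threshold, 4 passed under DESeq2 alone (Lama4, Vcan, Sdc3 and Gpc1), and 42 changed sign, in 18 members. The 519 include Col4a6, Col3a1 and Sdc4 under DESeq2, which gave them no adjusted p, so for them only the direction was compared. The count of all genes called, 1 in edgeR, was 555 with DESeq2 (233 higher, 322 lower), 0 with limma-voom, 31 without the filter (15 higher, 16 lower), 29 without Scr replicate 2 and Mir replicate 3 together, and 0 to 2 when 1 library was left out. The count of members called, 0 in edgeR, was 4 with DESeq2 and 0 whichever library was left out. Members without overlap numbered 8, 11 to 21 with 1 library left out and 15 without both libraries, since fewer libraries overlap less. The median member fold change was -0.15 to 0.09 with 1 library left out, and 16 to 27 members were then higher in Mir. Whether the replicate numbers pair the samples is not known. Deviations of same-numbered libraries correlated at 0.22, -0.15 and -0.10, and not every library correlated best with its own number. With the replicate block, 0 genes were called, and the sign changed for Lama5 (0.035), Nid2 (0.011), Col1a1 (-0.53), Col3a1 (-0.11) and Adamts1 (-0.20). With limma-voom it changed for Lama5 (0.0094), Nid2 (0.12), Col1a1 (-0.99), Col3a1 (-1.58) and Adamts1 (-0.25). Without Scr replicate 2 and Mir replicate 3 together it changed for Nid2 (0.84), Agrn (0.045), Sparcl1 (0.15), Adamts1 (-0.12) and Timp2 (0.036). Leaving out 1 library in turn kept the direction of 26 members; the lowest and highest values of the other 18 were -0.046 and 1.24 for Lama1, -0.35 and 0.42 for Lama5, -0.26 and 0.11 for Lamc1, -0.71 and 0.81 for Nid2, -0.22 and 0.047 for Agrn, -0.053 and 0.38 for Col4a5, -2.04 and 1.75 for Col1a1, -1.01 and 3.88 for Col1a2, -2.09 and 2.84 for Col3a1, -0.018 and 0.17 for Col9a3, -0.17 and 0.041 for Ncan, -0.80 and 0.0047 for Sparc, -0.36 and 0.10 for Sparcl1, -0.58 and 0.27 for Itga6, -0.082 and 0.24 for Gpc2, -0.29 and 0.057 for Gpc6, -0.32 and 0.46 for Adamts1, and -0.40 and 0.25 for Timp2. The causes of the other changes were not tested. With 3 libraries a group, exact tests cannot go below p = 0.1, and members at a few reads (Col4a6, Sdc4, Itga2, Itga7, Has2) are limited by depth.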
